A study of Mus musculus with 75 samples.

Results

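The knockdown of Tead1 in mouse skin fibroblasts was read from 6 RNA-seq libraries, 3 that carried the short hairpin sh3 against Tead1 and 3 that carried the non-targeting hairpin (nt). They were taken by their sample titles from the 44 RNA-seq libraries and 75 samples of the series, and 13012 of the 24984 genes in the count files had enough reads to be tested. The series follows replicative senescence, the loss of division in cultured cells with passaging, and the knockdown asks what changes when this transcription factor is reduced. All groups were C57BL/6 skin fibroblasts, and all knockdown groups, nt included, had been infected with lentivirus. Per the methods, knockdown cells were also selected with puromycin, which is not described for the passage cultures. Fibroblasts of newborn and of 2-month-old mice were both used for knockdown in the study, and the labels give neither the age nor the passage of these cultures, nor whether replicates came from separate infections or animals. The p-values therefore measure the spread between these libraries, which may be technical. Other libraries were used beside sh3. There were 3 libraries of a second Tead1 hairpin, sh4. By the published hairpin sequences, its target within the Tead1 transcript is nearly identical to that of sh3. There were also 16 libraries of untreated fibroblasts of 2-month-old female mice, 4 each from passage 1 (P1), passage 3 (P3), passage 5 (P5) and passage 7 (P7).

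TEAD1 is one of 4 related DNA-binding factors that read out the Hippo pathway. The kinases MST1/2 and LATS1/2 hold the coactivators YAP and TAZ in the cytoplasm, and when these enter the nucleus they bind TEAD factors and switch on genes for growth, matrix and the cytoskeleton. VGLL proteins bind the same surface of TEAD factors and compete with YAP and TAZ.

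The 6 libraries held between 17460990 and 19440415 counts on genes. Pairs of replicates differed beyond counting error, as their chi-square over its degrees of freedom ran from 2.80 to 5.59 in the 3 groups. The first principal component held 41.2% of the variance, with the nt libraries between 24.3 and 26.6, the sh3 libraries between -18.4 and -17.1 and the sh4 libraries between -9.36 and -4.97. The summed level of 12 fibroblast markers was 32160 to 33060 CPM (counts scaled to the library size) in sh3 and 32970 to 33930 CPM in nt, whereas 12 macrophage markers together stayed under 13.9 CPM, 12 keratinocyte markers under 13.7 CPM and 10 endothelial markers under 7.50 CPM in the 6 libraries. Xist and the Y-linked Ddx3y were both present in every library. They averaged 209 and 66.8 CPM in sh3 and 201 and 68.0 CPM in nt. The knockdown cultures thus held male cells, whereas the passage libraries came from female mice. Of 5 sex-linked genes listed, 5 had enough reads to be tested in the knockdown and 1 in the passages. In these bulk libraries, fewer cells of a type and less RNA per cell cannot be told apart.

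Tead1 (chr7:112679356-112906784, GRCm38) fell to 0.515 of its level in nt. It stood at 268, 284 and 285 CPM in the sh3 libraries and at 572, 508 and 545 CPM in the nt libraries. The highest sh3 library lay far below the lowest nt library. The log2 fold change was -0.96 (SE 0.04, edgeR adjusted p = 1.75e-21). This is just short of the fold change of 2 that, with an adjusted p under 0.05, defines a called gene below.

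Of the other TEAD genes, Tead3 rose and Tead2 fell slightly, and Tead4 was low. Tead3 was at 80.4, 84.8 and 84.6 CPM in sh3 and 67.6, 66.4 and 71.6 CPM in nt, with no overlap (log2 fold change 0.28, SE 0.05, adjusted p = 2.38e-05). Tead2 changed by -0.16 (SE 0.06, adjusted p = 0.0187), and its call was lost without sh3 replicate 2 (adjusted p = 0.129), without nt replicate 2 (adjusted p = 0.0991) and with upper quartile scaling (adjusted p = 0.0792). Tead4, at 3.36 to 5.01 CPM in sh3 and 4.65 to 5.66 CPM in nt, missed the threshold (log2 fold change -0.32, SE 0.18, adjusted p = 0.170). Per kilobase of exon, Tead1 had 54.7 CPM in nt and 28.2 CPM in sh3, and in sh3 Tead3 had 27.7 and Tead2 25.3 CPM per kilobase, so that 3 TEAD genes stood at near the same level per length in the sh3 libraries.

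The coactivators changed little and the VGLL cofactors that were expressed rose. Yap1, at 348, 354 and 349 CPM in sh3 and 388, 381 and 388 CPM in nt, fell by 0.14 on the log2 scale (SE 0.04, adjusted p = 0.00218) without overlap. Wwtr1, the gene of TAZ, changed by -0.12 (SE 0.04, adjusted p = 0.0179). This call was lost without sh3 replicate 1, sh3 replicate 2, nt replicate 1 or nt replicate 2 (adjusted p = 0.0589, 0.0673, 0.0598 and 0.0879) and with upper quartile scaling (adjusted p = 0.124). Vgll3 was higher in each sh3 library (229, 246 and 246 CPM) than in any nt library (172, 175 and 174 CPM), with a log2 fold change of 0.47 (SE 0.04, adjusted p = 1.73e-12). Vgll4 rose by 0.45 (SE 0.07, adjusted p = 1.25e-06), from 28.5 to 30.1 CPM in nt to 36.5 to 41.4 CPM in sh3. Vgll1 and Vgll2 had no count in the 6 libraries, which allows up to 0.155 to 0.173 CPM per library, the level of 3 counts.

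**Figure D1:**
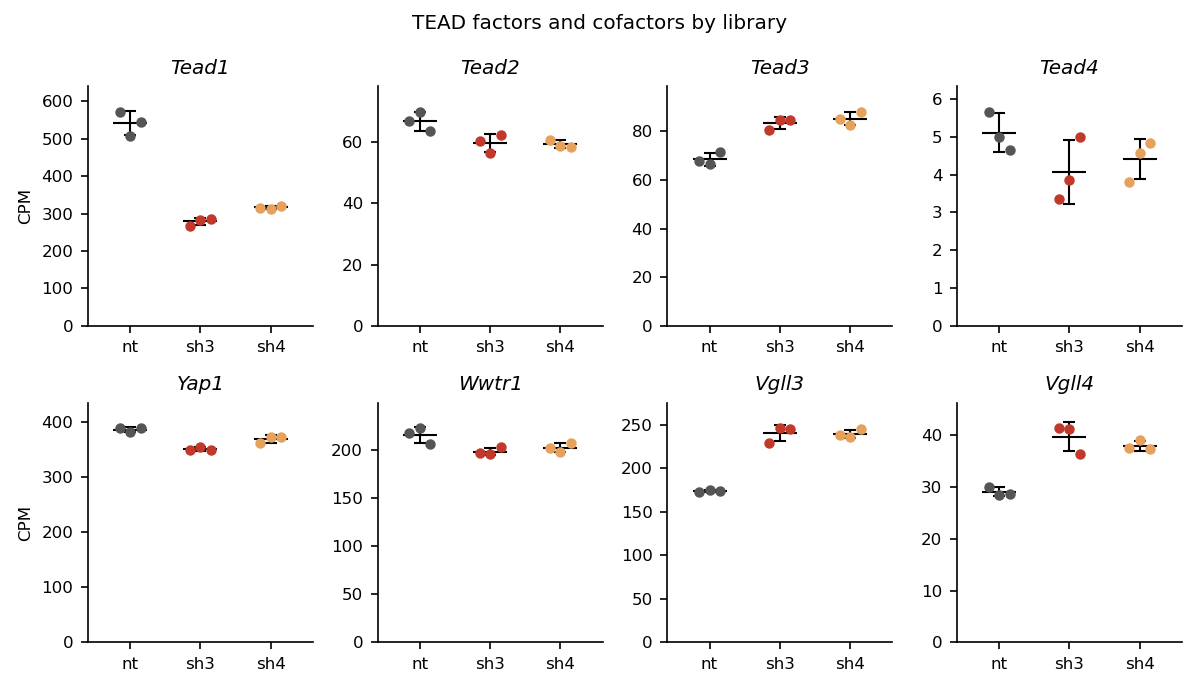
CPM of 8 TEAD factors and cofactors in each library (points) with the mean and SD of the 3 libraries (bars), for nt, sh3 and sh4, each axis starting at 0. Tead1 is lower in sh3 (mean 279 CPM) than in nt (mean 541.5 CPM), while Tead3, Vgll3 and Vgll4 are higher.

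Upstream of the coactivators, 27 kinases, scaffolds and regulators of the Hippo pathway were tested, of which 6 rose and 9 fell, against 8 and 6 with upper quartile scaling. Stk4, which encodes the kinase MST1, fell the most, from 44.9, 47.5 and 44.9 CPM in nt to 23.5, 24.2 and 26.9 CPM in sh3 (log2 fold change -0.88, SE 0.07, adjusted p = 5.38e-13). Lats2, which encodes a kinase of YAP and TAZ and is itself a target of TEAD, rose from 198, 194 and 188 CPM to 302, 333 and 326 CPM (log2 fold change 0.73, SE 0.04, adjusted p = 8.01e-18). The levels of both genes did not overlap between the groups. Amot, a scaffold that binds YAP, fell by 0.41 on the log2 scale (SE 0.08, adjusted p = 4.13e-05), and Fjx1, a kinase gene of the Fat and Dachsous branch, fell by 0.53 (SE 0.08, adjusted p = 3.65e-07).

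Genes known as targets of YAP, TAZ and TEAD moved in both directions. Of 22 tested, 11 rose, 5 fell and 6 missed the threshold, and the median log2 fold change was 0.19, beside 0.004 over all genes tested. The share of genes with an adjusted p under 0.05 over all genes was 17.7% higher and 17.8% lower. The 5 that fell were Ccn2, Ankrd1, Fjx1, Tgfb2 and Ccdc80. Ccn2, which encodes a secreted matricellular growth factor, was at 2197, 2126 and 2075 CPM in sh3 and 2521, 2657 and 2673 CPM in nt (log2 fold change -0.29, SE 0.03, adjusted p = 4.57e-09). Ankrd1, an ankyrin repeat protein of the nucleus and sarcomere, was at 42.7, 43.6 and 43.4 CPM in sh3 and 53.2, 57.6 and 55.9 CPM in nt (log2 fold change -0.36, SE 0.06, adjusted p = 4.23e-06). In both genes every sh3 library was below every nt library. Ccn1, the close relative of Ccn2, overlapped between the groups, with 932 to 1023 CPM in sh3 and 934 to 970 CPM in nt (log2 fold change 0.04, SE 0.04, adjusted p = 0.417), as did the receptor kinase gene Axl (log2 fold change -0.001, SE 0.04, adjusted p = 0.984).

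Among the targets that rose, Igfbp3, a binding protein of insulin-like growth factors, was the only called one. It was at 16.1, 16.2 and 13.3 CPM in sh3 and 6.42, 7.14 and 6.77 CPM in nt (log2 fold change 1.16, SE 0.12, adjusted p = 1.05e-10). F3, the gene of tissue factor, was at 439, 442 and 453 CPM in sh3 and 294, 302 and 297 CPM in nt (log2 fold change 0.58, SE 0.04, adjusted p = 4.99e-15). Amotl2, which encodes another YAP-binding scaffold, rose by 0.23 (SE 0.04, adjusted p = 1.06e-06). Nt5e, the gene of the ectonucleotidase CD73, rose by 0.79 (SE 0.25, adjusted p = 0.0103), but missed the threshold without nt replicate 3 (0.58, adjusted p = 0.0977).

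The promoters of 3 of these targets show that the letters GGAATG, the core to which TEAD factors bind, stood before genes that fell, missed the threshold and rose. The 250 bases before the RefSeq start (GRCm38.p6) are printed from Ankrd1 (chr19:36119845-36120094, minus strand), Ccn1 (chr3:145649986-145650235, minus strand) and Amotl2 (chr9:102717554-102717803, plus strand), 5′ to 3′ along the gene, with the core or its reverse complement in capitals.
Ankrd1: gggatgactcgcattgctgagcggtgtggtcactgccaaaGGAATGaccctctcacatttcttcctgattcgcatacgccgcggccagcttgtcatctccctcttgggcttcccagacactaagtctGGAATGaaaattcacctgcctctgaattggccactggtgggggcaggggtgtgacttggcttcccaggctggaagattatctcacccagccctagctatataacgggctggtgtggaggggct
Ccn1: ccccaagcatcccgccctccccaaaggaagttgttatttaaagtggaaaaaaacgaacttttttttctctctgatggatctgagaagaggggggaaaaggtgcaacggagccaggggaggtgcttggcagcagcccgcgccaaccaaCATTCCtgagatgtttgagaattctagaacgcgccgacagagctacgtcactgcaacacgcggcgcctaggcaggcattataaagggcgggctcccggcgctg
Amotl2: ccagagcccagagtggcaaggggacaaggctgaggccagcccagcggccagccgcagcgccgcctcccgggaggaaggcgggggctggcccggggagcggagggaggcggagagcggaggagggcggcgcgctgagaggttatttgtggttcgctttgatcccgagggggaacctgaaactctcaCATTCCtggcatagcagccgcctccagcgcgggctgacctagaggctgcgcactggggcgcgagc
Ankrd1 holds the core at -210 and -123 from the start, Ccn1 at -103 and Amotl2 at -65. Of the 15 listed targets with a window, 6 held the core in the 250 bases before a start. Among those without it were Igfbp3, F3, Lats2 and Nt5e, which rose, and Tgfb2, which fell. Over windows of 300 bases (250 before to 50 after a start), searched on both strands, GGAATG was found in 41.2% of the 17 windows of 15 listed targets, and in 12.3% of the 13218 windows of the tested genes. It was found in 21.9% of the 96 windows of genes called lower in sh3 and in 14.0% of the 235 windows of genes called higher. With the longer AGGAATG, these shares were 8.33% and 4.68%, beside 4.21% of the windows of the tested genes. A match of letters is no evidence of binding, and the shares were not tested.

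Over all genes, 258 were called higher in sh3 (1.98% of those tested) and 94 were called lower (0.722%). By adjusted p alone, 2302 genes were higher and 2318 lower with the main scaling, and 2788 were higher and 1851 lower with upper quartile scaling. Many were of low level, as 133 of the 258 and 35 of the 94 had an average log2 CPM under 1. The 3 sh3 and 3 nt libraries did not overlap in 248 of the 258 and 91 of the 94, against 44.7% of all genes tested. Of the 352 called genes, 24 had over 10% of their exonic bases in another gene, and without strand in the counting their reads cannot be assigned with certainty. With at least 10 counts required in every library, 150 genes were called higher and 70 lower. With the test run against a fold change of 1.5, and a fold change over 2 still required, the numbers were 128 and 52.

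Of the called genes, 80 averaged 3 or more on the log2 CPM scale without overlap of the groups. The 10 highest of them were Col8a2, Klk8, Cygb, Tenm4, Sema7a, Rassf2, Lrrn4cl, Slco2a1, Bst2 and Cd55. Col8a2, a network-forming collagen of basement membranes (chr4:126286794-126314330), was at 13.1, 16.3 and 16.9 CPM in sh3 and 3.06, 2.49 and 2.79 CPM in nt (log2 fold change 2.47, SE 0.14, adjusted p = 1.87e-17). Slco2a1, the prostaglandin transporter (chr9:103007061-103096002), was at 158, 174 and 144 CPM in sh3 and 57.7, 51.6 and 54.6 CPM in nt (log2 fold change 1.54, SE 0.07, adjusted p = 6.51e-12). Sema7a, a membrane-anchored semaphorin, rose from 23.2 to 26.2 CPM in nt to 64.1 to 84.2 CPM in sh3 (log2 fold change 1.58, SE 0.08, adjusted p = 1.52e-14). In each of these genes the lowest sh3 library was more than 2 times the highest nt library. Rassf2, which encodes a scaffold that binds MST kinases, rose by 1.57 (SE 0.10), Cygb, the globin cytoglobin, by 1.65 (SE 0.10), Klk8, a secreted serine protease, by 1.70 (SE 0.13) and Tenm4, a teneurin adhesion protein, by 1.58 (SE 0.12). Cd55, which protects cells from complement, rose by 1.43 (SE 0.09), with 10.1% of its exonic bases in another gene.

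The 10 lowest by the same rule were Gjb2, Fndc1, Gyg, Galnt16, Zdhhc2, Atl2, Fbn2, Slc5a7, Tnn and Dbi. Gjb2, which encodes the gap junction protein connexin 26 (chr14:57098602-57104702), was at 11.5, 8.71 and 10.02 CPM in sh3 and 37.9, 34.5 and 32.2 CPM in nt (log2 fold change -1.79, SE 0.10, adjusted p = 5.91e-17). Fbn2, the microfibril protein fibrillin 2, was at 91.1, 82.0 and 80.9 CPM in sh3 and 218, 204 and 214 CPM in nt (log2 fold change -1.32, SE 0.05, adjusted p = 2.93e-23). Fndc1, a fibronectin type III protein, fell from 55.8 to 65.2 CPM in nt to 17.0 to 21.5 CPM in sh3 (log2 fold change -1.70, SE 0.08, adjusted p = 2.39e-18). The groups were apart by more than 2-fold in each of the 3. Gyg, the glycogenin that primes glycogen, changed by -1.49 (SE 0.08), Galnt16, an enzyme of O-glycosylation, by -1.41 (SE 0.10), Atl2, a GTPase that fuses membranes of the endoplasmic reticulum, by -1.39 (SE 0.08) and Dbi, the acyl-CoA binding protein, by -1.28 (SE 0.08). Tnn, a tenascin of the matrix, spread most within sh3, with 19.6 to 30.8 CPM and replicate 3 the highest, against 48.5 to 64.6 CPM in nt (log2 fold change -1.30, SE 0.23, adjusted p = 0.00473).

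**Figure D2:**
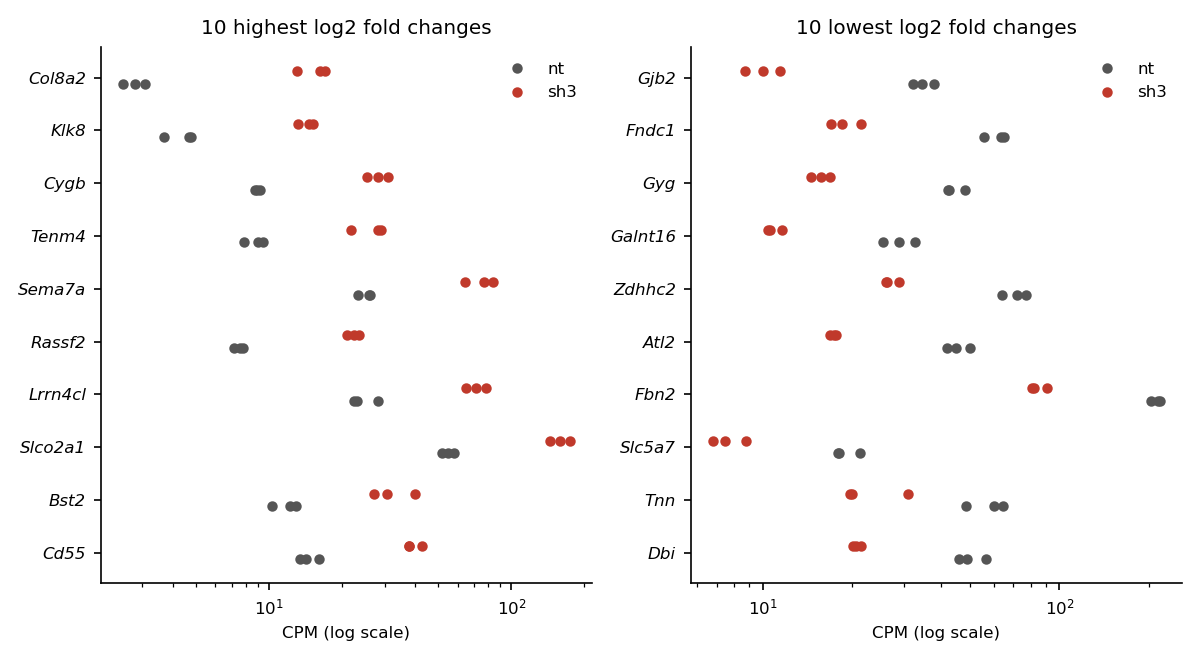
CPM on a log axis of the 10 highest and 10 lowest called genes of the 80 above, 1 point per library, sh3 in red and nt in grey. In no gene do the 3 sh3 points reach the 3 nt points, which the selection requires.

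The list with the highest median was that of interferon-stimulated genes, which encode antiviral effectors and sensors. Of 35 listed, 32 were tested, 31 rose (median log2 fold change 1.66) and 22 were called higher, and none fell. The exception was Zbp1 (log2 fold change 0.92, SE 0.52, adjusted p = 0.173). Most were scarce, as 18 of the 22 called genes had a mean under 2 CPM in nt. Oasl2, a relative of the oligoadenylate synthetases, was at 9.63, 4.91 and 9.36 CPM in sh3 and 0.636, 1.08 and 0.517 CPM in nt (log2 fold change 3.42, SE 0.51, adjusted p = 7.14e-04). Ifit1, which binds RNA with foreign caps, was at 12.7, 5.18 and 11.1 CPM in sh3 and 0.694, 1.30 and 0.982 CPM in nt (log2 fold change 3.27, SE 0.52, adjusted p = 0.00189). Isg15, a ubiquitin-like modifier, was at 7.30, 5.74 and 9.58 CPM in sh3 and 1.10, 1.02 and 1.40 CPM in nt (log2 fold change 2.67, SE 0.29, adjusted p = 2.12e-07), and 10.6% of its exonic bases lie in another gene. In all 3 genes sh3 replicate 2 was the lowest of the sh3 libraries and still above every nt library.

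Usp18, the protease that removes ISG15, rose by 2.98 (SE 0.49, adjusted p = 0.00102), and by 3.56 without nt replicate 2, which had the highest nt level. Among the more abundant members, Bst2, the membrane protein tetherin that holds back virions, was at 27.1, 30.6 and 40.1 CPM in sh3 and 13.0, 12.3 and 10.3 CPM in nt (log2 fold change 1.47, SE 0.23, adjusted p = 0.00197). Stat2, a transcription factor of the interferon response, rose from 14.9 to 15.8 CPM in nt to 31.2 to 37.8 CPM in sh3 (log2 fold change 1.15, SE 0.09, adjusted p = 3.97e-13). The sensor gene Ifih1 rose by 1.38 (SE 0.15), the factor gene Irf7 by 2.01 (SE 0.23) and Ifitm3, which blocks virus entry, by 0.30 (SE 0.06). Summed over the 22 called genes, the sh3 libraries held 176, 129 and 191 CPM and the nt libraries 47.5, 55.1 and 47.8 CPM, and 21 of the 22 had their lowest sh3 level in replicate 2. Between 19 and 23 of the list were called when any 1 of the 6 libraries was left out, and 13 of the 22 tested with at least 10 counts in every library.

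**Figure D3:**
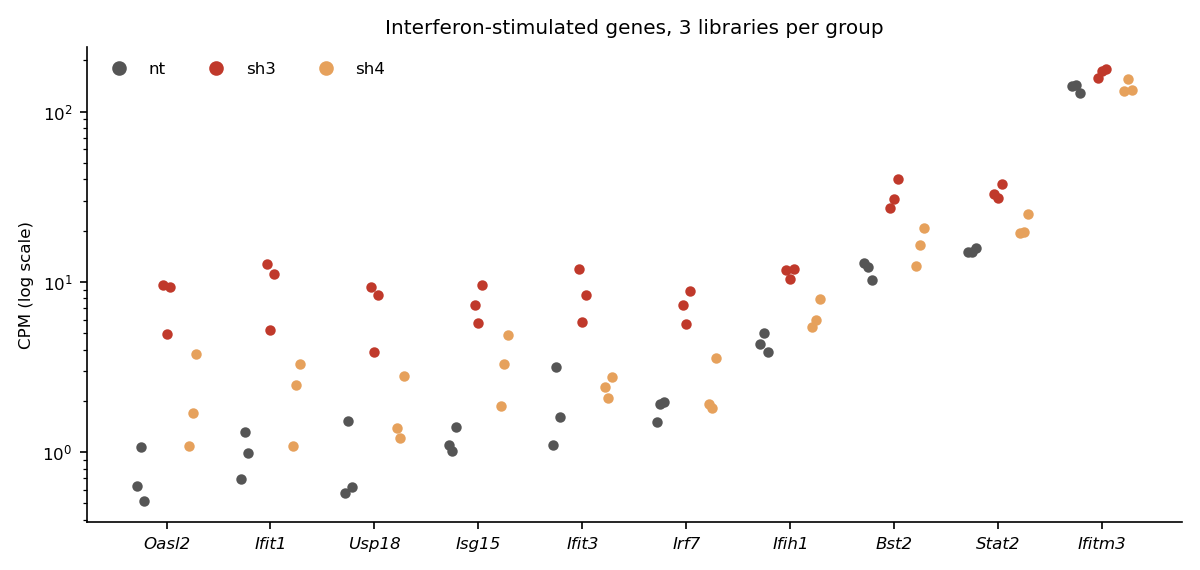
CPM on a log axis of 10 interferon-stimulated genes in the 3 nt (grey), 3 sh3 (red) and 3 sh4 (orange) libraries, points of a group in the order of the replicate numbers. The sh3 libraries are above the nt libraries in all 10 genes, and the mean of the sh4 libraries lies between the means of the others.

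The interferon response acts through promoter elements whose core is GAAA, any 2 bases and a second GAAA, and the 250 bases before the start of 3 called genes are shown for their matches. They are Isg15 (chr4:156200819-156201068, minus strand), Ifit1 (chr19:34640639-34640888, plus strand) and Bst2 (chr8:71537473-71537722, minus strand), in the same build and direction as above, with every base of a match on either strand in capitals.
Isg15: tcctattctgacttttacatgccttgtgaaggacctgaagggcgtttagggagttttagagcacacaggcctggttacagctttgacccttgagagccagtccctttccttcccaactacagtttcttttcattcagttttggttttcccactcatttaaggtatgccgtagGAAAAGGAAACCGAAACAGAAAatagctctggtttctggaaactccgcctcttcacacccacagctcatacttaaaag
Ifit1: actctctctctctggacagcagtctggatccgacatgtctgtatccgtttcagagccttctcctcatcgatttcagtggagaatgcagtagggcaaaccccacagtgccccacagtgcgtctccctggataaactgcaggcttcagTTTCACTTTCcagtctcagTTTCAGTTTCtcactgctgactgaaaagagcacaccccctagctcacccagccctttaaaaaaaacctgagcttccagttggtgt
Bst2: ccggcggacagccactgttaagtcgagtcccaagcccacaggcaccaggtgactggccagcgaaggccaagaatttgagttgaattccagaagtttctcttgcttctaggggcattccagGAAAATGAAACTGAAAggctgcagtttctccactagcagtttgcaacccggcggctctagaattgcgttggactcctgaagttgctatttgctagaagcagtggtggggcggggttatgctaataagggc
Isg15 holds 3 overlapping matches, Ifit1 holds 2 separate ones and Bst2 holds 2 that overlap. Of the 22 called genes 17 had a window, and 10 of these held the core in the 250 bases before a start. In windows of 300 bases the core was found in 61.1% of the 18 windows of these genes, in 11.1% of the 217 windows of the other genes called higher, in 2.87% of the windows of the tested genes and in 0 of the 96 windows of genes called lower. The other genes called higher were those outside the list, which does not hold every gene that interferon induces. The motif was chosen after the interferon-stimulated genes had been seen to rise, and the shares were not tested.

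Outside the interferon list, genes of inflammation and of the p53 response were more often higher than lower. Of 30 p53 target genes, 22 rose and 3 fell (median log2 fold change 0.30). Btg2, an antiproliferative gene, was at 103, 107 and 94.3 CPM in sh3 and 48.3, 52.6 and 56.6 CPM in nt (log2 fold change 0.95, SE 0.06, adjusted p = 1.32e-16). Perp, a membrane protein of desmosomes, was the only called member (log2 fold change 1.14, SE 0.16, adjusted p = 1.87e-07), and Trp53inp1, a stress-induced protein of autophagy, rose by 0.65 (SE 0.06). Trp53 itself rose by 0.24 (SE 0.04, adjusted p = 9.89e-06). Of 27 chemokines, cytokines and acute-phase genes tested, 15 rose and 4 fell. Vcam1, the adhesion molecule for leukocytes, was at 233, 246 and 230 CPM in sh3 and 120, 130 and 124 CPM in nt (log2 fold change 0.92, SE 0.05, adjusted p = 1.14e-14), and Lif, a cytokine of the interleukin 6 family, rose by 0.85 (SE 0.08). Ptgs2, which encodes the prostaglandin synthase COX-2, moved the other way, from 265 CPM (SD 10.6) in nt to 149 CPM (SD 3.71) in sh3 (log2 fold change -0.84, SE 0.05, adjusted p = 9.41e-17).

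Cell cycle inhibitors did not move together. Of 20 inhibitors and senescence markers, 4 rose and 7 fell with the main scaling, and 5 rose and 5 fell with upper quartile scaling. Cdkn1a, the gene of p21, rose from 595 to 606 CPM in nt to 718 to 723 CPM in sh3 (log2 fold change 0.26, SE 0.03, adjusted p = 6.40e-08). Cdkn2a, the locus of p16 and p19, overlapped between the groups, with 75.0 to 80.9 CPM in sh3 and 77.2 to 85.3 CPM in nt (log2 fold change -0.06, SE 0.06, adjusted p = 0.412). Cdkn1b, the gene of p27, was at 21.0, 19.4 and 22.8 CPM in sh3 and 34.2, 32.8 and 31.6 CPM in nt (log2 fold change -0.64, SE 0.08, adjusted p = 1.13e-08). Il6 changed by -0.57 (SE 0.22, adjusted p = 0.0405), and missed the threshold without any 1 of nt replicates 1 to 3, sh3 replicate 1 or sh3 replicate 2 (adjusted p from 0.0536 to 0.146). Lmnb1, the lamin gene whose loss marks senescent cells, fell by 0.22 on the log2 scale (SE 0.06, adjusted p = 0.00462).

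Few genes of division passed the test. Of 43 S-phase genes, 5 rose and 4 fell (median log2 fold change 0.001), and of 54 G2/M genes, 5 rose and 10 fell (median -0.06), against 6 and 6 with upper quartile scaling. Rfc2, a subunit of the clamp loader of replication, was the only called one of both lists, with 13.7, 13.3 and 12.9 CPM in sh3 and 26.6, 35.8 and 32.5 CPM in nt (log2 fold change -1.25, SE 0.10, adjusted p = 1.81e-13). Cks1b, a binding partner of cyclin-dependent kinases, fell from 50.3 to 52.8 CPM in nt to 25.3 to 29.6 CPM in sh3 (log2 fold change -0.91, SE 0.07, adjusted p = 1.61e-13). Mcm2, of the replicative helicase, rose by 0.41 (SE 0.05), and Rrm1, of the enzyme that makes deoxyribonucleotides, fell by 0.32 on the log2 scale (SE 0.04).

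In metabolism, glycolysis genes fell and cholesterol genes rose. Of 19 glycolysis genes, 12 fell and 2 rose (median log2 fold change -0.22), and 11 fell and 3 rose with upper quartile scaling. Hk2, a hexokinase that starts glycolysis, was at 52.7, 47.2 and 47.5 CPM in sh3 and 81.3, 75.7 and 78.0 CPM in nt (log2 fold change -0.67, SE 0.06, adjusted p = 1.01e-12). Pfkl, a subunit of phosphofructokinase, changed by -0.48 (SE 0.05) and Slc16a3, the lactate exporter, by -0.81 (SE 0.09), although 10.6% of the exonic bases of the latter lie in another gene. The 2 that rose were Slc2a1, the glucose transporter, and the enolase Eno2. Of 25 cholesterol biosynthesis genes, 15 rose and none fell (median 0.21). Msmo1, an enzyme of the pathway, was at 98.4, 89.6 and 92.8 CPM in sh3 and 68.1, 72.7 and 66.4 CPM in nt, without overlap (log2 fold change 0.44, SE 0.05, adjusted p = 6.95e-09). Beside these, 9 adipocyte markers summed to 63.8 to 69.0 CPM in sh3 and 42.2 to 44.1 CPM in nt, mostly from Lpl. The 3 of them that were tested all rose, Lpl by 0.65 (SE 0.06), Fabp4 by 0.75 (SE 0.22) and Pparg by 0.47 (SE 0.11). Fabp4 missed the threshold in 2 of the 6 fits with a library left out. Cidec, Lep and Retn were at 0 in nt, and the part of the adipocyte markers was not tested.

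Respiratory chain and citrate cycle genes had medians near 0. Of 75 nuclear subunits of oxidative phosphorylation, 6 rose, 11 fell and 58 missed the threshold (median log2 fold change -0.01), and with upper quartile scaling 15 rose and 7 fell. Of 27 citrate cycle genes, 4 rose and 7 fell, against 8 and 4 with upper quartile scaling, so that the balance of both lists turned with the scaling. Atp5k, a small subunit of ATP synthase, was the only called one, with 7.41, 8.93 and 9.09 CPM in sh3 and 20.1, 16.4 and 15.8 CPM in nt (log2 fold change -1.03, SE 0.14, adjusted p = 3.76e-07). Atp5f1, another subunit, fell from 138 to 155 CPM in nt to 88.7 to 94.5 CPM in sh3 (log2 fold change -0.67, SE 0.05, adjusted p = 6.78e-14). Fh1, fumarase, fell by 0.27 on the log2 scale (SE 0.06). Of 60 mitochondrial ribosome genes, 8 rose and 5 fell, and of 37 lysosomal genes, 12 rose and 7 fell.

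More contractile genes fell than rose, and more collagens and matrix enzymes rose than fell. Of 34 contractile and actin cytoskeleton genes, 20 fell and 4 rose (median log2 fold change -0.13), and 17 fell and 5 rose with upper quartile scaling. Actg2, a smooth muscle actin, was at 333, 320 and 335 CPM in sh3 and 517, 506 and 524 CPM in nt (log2 fold change -0.65, SE 0.04, adjusted p = 2.94e-17). The summed level of 11 skeletal muscle markers, nearly all from the actin gene Acta1, was 65.2 to 75.0 CPM in sh3 and 98.6 to 99.7 CPM in nt, with Myod1 and Myog at 0 in nt, and its part in the result was not tested. Myh11, the myosin heavy chain of smooth muscle, fell by 0.57 on the log2 scale (SE 0.05) and Lmod1, an actin nucleator, by 0.61 (SE 0.04). Of 22 collagens 11 rose, 3 fell and 8 missed the threshold, and their summed level overlapped, with 53360 to 55340 CPM in sh3 and 52050 to 56010 CPM in nt. A member that rose was Col3a1, with 3280, 3303 and 3475 CPM in sh3 and 2325, 2403 and 2398 CPM in nt (log2 fold change 0.50, SE 0.03, adjusted p = 3.80e-15). Of 20 metalloproteinases and inhibitors tested, 11 rose and 3 fell. Adamts5, a protease of aggrecan, was at 360, 384 and 416 CPM in sh3 and 221, 219 and 225 CPM in nt (log2 fold change 0.80, SE 0.05, adjusted p = 1.05e-16), and Timp3, an inhibitor of these proteases, rose by 0.63 (SE 0.04). Other matrix genes were split, with 19 of 40 higher and 15 lower, Lum, a leucine-rich proteoglycan, rising by 1.31 (SE 0.19).

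In TGF-beta and BMP signalling, 18 of 34 genes rose and 8 fell. Bmp6, a BMP ligand, was at 5.24, 6.45 and 7.19 CPM in sh3 and 2.54, 2.27 and 1.71 CPM in nt (log2 fold change 1.54, SE 0.19, adjusted p = 1.76e-08). The BMP-responsive genes Smad6 and Id2 rose by 0.66 (SE 0.06) and 0.64 (SE 0.07), and Tgfbr3, the coreceptor betaglycan, by 0.75 (SE 0.05). The ligand genes Tgfb2 and Tgfb3 fell by 0.40 (SE 0.05) and 0.19 (SE 0.04) on the log2 scale. Of 21 immediate-early genes, 9 rose and 4 fell, with Egr3 higher by 0.92 (SE 0.12) and Atf3 lower by -0.68 (SE 0.21, adjusted p = 0.00818), and of 26 genes of the integrated stress response, 13 rose and 6 fell, among them the factors Cebpb, higher by 0.66 (SE 0.05), and Cebpg, lower by -0.79 (SE 0.06).

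**Figure D4:**
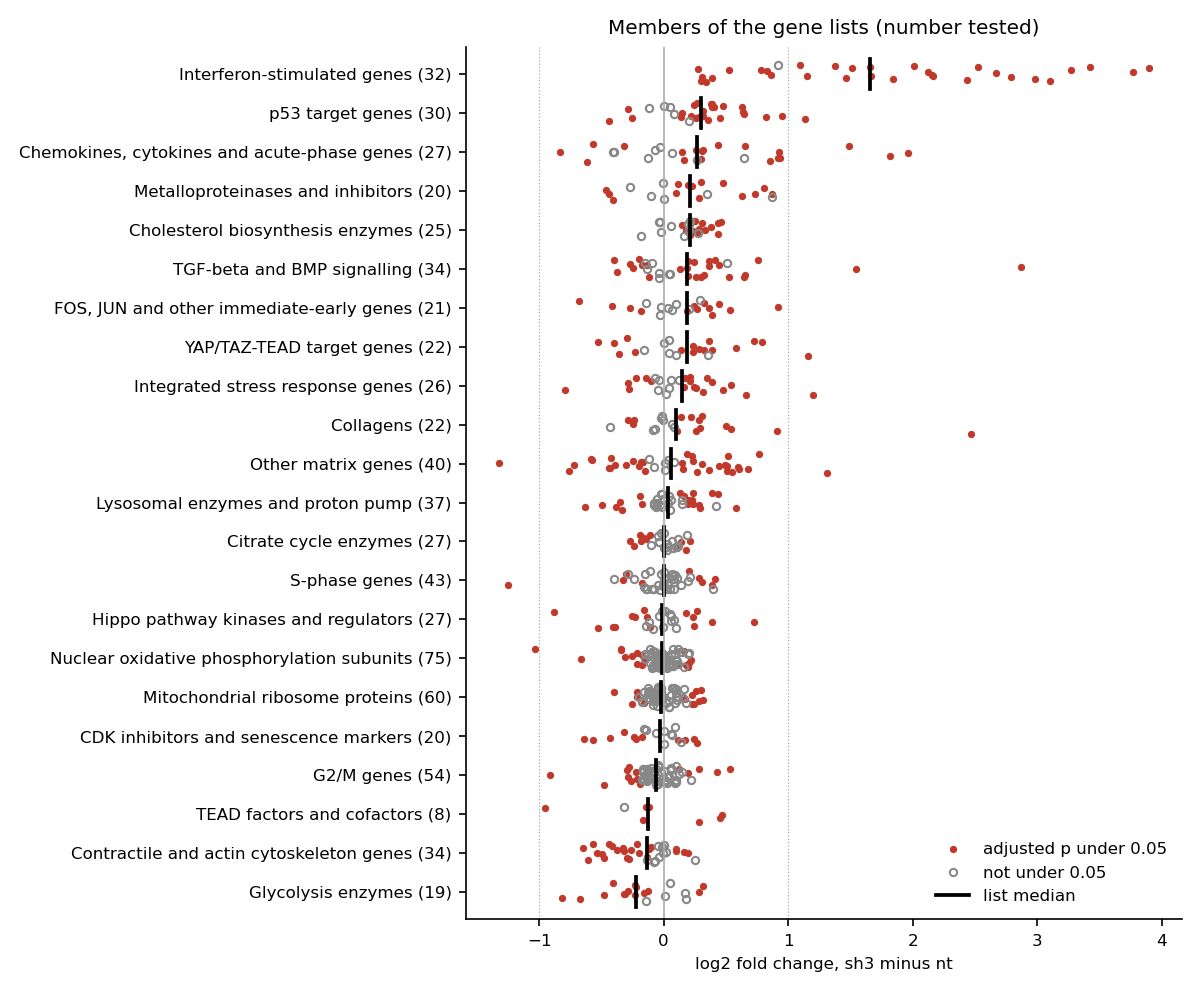
Log2 fold change of sh3 against nt (horizontal axis) for each tested member of 22 gene lists, filled red where the adjusted p was under 0.05, with a black bar at the median of the list and dotted lines at a fold change of 2. Interferon-stimulated genes have a median of 1.66, and no other list has a median beyond 0.30 in either direction.

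The hairpin sh4 lowered Tead1 slightly less than sh3 and gave fewer of the interferon-stimulated transcripts. Tead1 was at 315, 313 and 320 CPM in sh4, all above the sh3 libraries (log2 fold change of sh4 against sh3 0.18, SE 0.04, adjusted p = 0.00268). In this direct comparison 3 genes were called higher in sh4 (0.0231% of those tested) and 28 lower (0.215%), and by adjusted p alone 3.66% were higher and 4.23% lower. No called gene had an average log2 CPM above 2.15. Of the 32 interferon-stimulated genes, 24 were lower in sh4 and 13 of them were called, with a median log2 fold change of -1.09. The list does not hold every gene that interferon induces, and the called genes outside it were not sorted for such genes. The sh4 libraries held 59.4, 71.8 and 96.2 CPM summed over the 22 genes, above the nt libraries and below the sh3 libraries. These 22 genes had been picked as higher in sh3 than in nt. Over all 32 tested members of the list, sh4 held 429, 491 and 505 CPM, which overlapped nt at 420, 445 and 405 CPM. Sh3 held 652, 607 and 731 CPM. Set against nt, 7 of the 32 were higher in sh4, 3 of them called, and none was lower. Over all 13012 genes, 1882 were higher in sh4 than in nt and 129 were called higher. The difference of sh4 against sh3 was -2.08 for Ifit1 (SE 0.45), -1.87 for Oasl2 and -1.18 for Isg15. Without sh3 replicate 3, 8 of the list and 18 genes in all were called lower, and with DESeq2 the numbers were 8 and 15. Members of other lists also differed between the hairpins by adjusted p, with none called in the lists given here. Higher in sh4 were 10 of 43 S-phase, 13 of 54 G2/M and 8 of 34 contractile genes, and none was lower. Lower in sh4 were 12 of 37 lysosomal and 7 of 30 p53 target genes, and none was higher.

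Other genes of sh3 against nt stood side by side with sh4 as follows, both set against the same nt libraries. The log2 fold change of Col8a2 was 2.47 with sh3 and 1.84 with sh4, that of Gjb2 was -1.79 and -1.36, that of Stk4 -0.88 and -0.92, and that of Lats2 0.73 and 0.74. F3 was higher by 0.58 with sh3 and by 0.20 with sh4, and the direct difference passed the test (-0.38, adjusted p = 1.60e-08). For Ccn2 the values were -0.29 and -0.12 (direct difference 0.18, adjusted p = 6.00e-04). Lyz2, the lysozyme gene of macrophages, was at 1.48, 0.827 and 1.96 CPM in sh3 and 4.45, 3.57 and 3.41 CPM in nt, and was called higher in sh4 than in sh3 (1.11, adjusted p = 0.00695), while the defining macrophage genes Adgre1 and Ptprc were at 0.0555 and 0.0950 CPM on average in sh3 and 0.330 and 0.161 CPM in nt. Of 12 macrophage markers 4 were tested. In sh3 against nt, 2 of these were called lower, Lyz2 among them, and none rose. The other had a log2 fold change of -3.22, the lowest of all genes tested. Summed over the 12 markers, the level was 8.71 to 10.7 CPM in sh3 and 11.1 to 13.9 CPM in nt, without overlap. The part of these markers in the results above was not tested.

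The genes called in sh3 against nt were called in both directions with passage. At P7 against P3, in libraries independent of the knockdown, 596 of 13442 genes were called higher (4.43%) and 996 lower (7.41%). Of the 258 genes called higher in sh3, 229 were tested in the passages, 33 were called higher at P7 (14.4%) and 40 lower (17.5%). Of the 94 called lower in sh3, 86 were tested, 17 were called higher at P7 (19.8%) and 12 lower (14.0%). All 4 shares were above those of all genes, and they were not tested. Against P1 in place of P3, 8.1% of all genes were called higher at P7 and 13.3% lower. Of the 229 genes, 38 were then higher (16.6%) and 88 lower (38.4%), and of the 86 genes, 20 were higher (23.3%) and 19 lower (22.1%). Of the 32 interferon-stimulated genes tested with the hairpin, 31 rose in sh3, whereas of 34 tested in the passages 3 rose and 17 fell at P7 against P3 (median log2 fold change -0.46). By adjusted p alone, 24.8% of all genes were higher and 26.5% lower in that comparison. Cell type markers also changed there. Called lower were 9 of 10 endothelial markers and 7 of 8 skeletal muscle markers tested (median log2 fold changes -2.40 and -3.48). Of 12 macrophage markers, 7 were called lower and 1 higher (median -1.41), and of 9 keratinocyte markers tested, 1 was called higher. None of 12 fibroblast markers was called. The part of cell composition in the passage results was not tested. At P7 against P3, 52 of 54 G2/M genes were lower and their median log2 change was -2.38, against -0.06 in sh3. S-phase genes had medians of -1.88 and 0.001. Tead1 itself was at 348 CPM (SD 30.5, n = 4) at P1, 473 CPM (SD 55.1) at P3, 397 CPM (SD 55.2) at P5 and 378 CPM (SD 65.6) at P7, and its log2 fold change at P7 against P3 was -0.32 (SE 0.12, adjusted p = 0.0356). Without P7 replicate 1 it was -0.20 (adjusted p = 0.127), and it also missed the threshold without P3 replicate 3 (-0.31, adjusted p = 0.0719) or P3 replicate 4 (-0.24, adjusted p = 0.139). Against P1, Tead1 changed by 0.12 at P7 (adjusted p = 0.416).

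**Figure D5:**
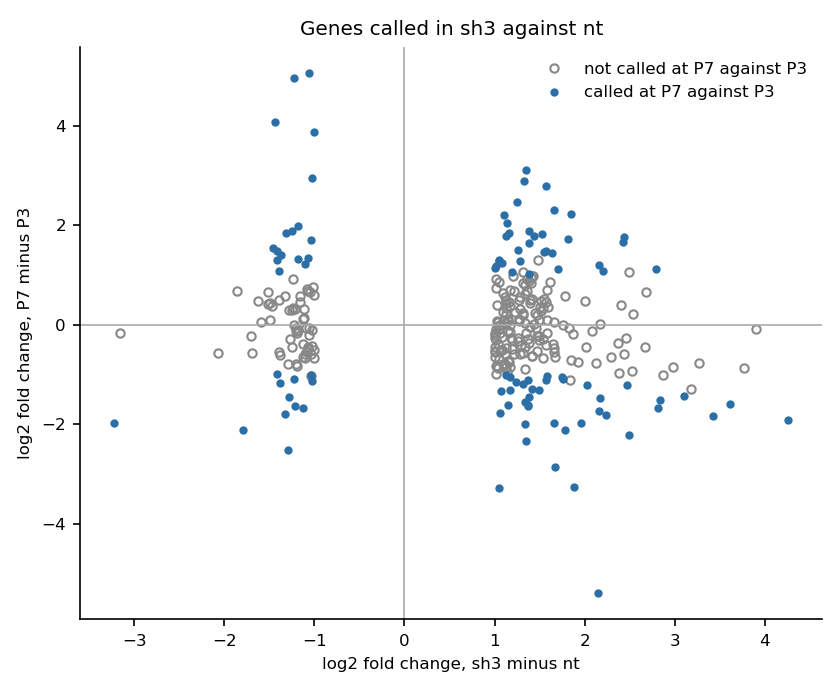
Log2 fold change at P7 against P3 (vertical axis) against that of sh3 against nt (horizontal axis) for the 315 genes called in sh3 and tested in the passages, filled blue where also called at P7 against P3. Blue points lie above and below 0 on both sides, 33 above and 40 below among genes higher in sh3, and 17 above and 12 below among genes lower in sh3.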

How the data were processed

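Per the methods, reads were trimmed (Trimmomatic 0.39), aligned to mm10 (HISAT2 2.2.1) and assigned to genes ignoring strand (HTSeq 0.12.4). The authors deposited raw counts per gene, without normalization. Reads with no feature (7.64% to 8.48%) or an ambiguous one were left out. The 9 libraries of the Tead1 experiment were fitted together with edgeR 4.0.16 in R 4.3.3 (filterByExpr, TMM scaling, robust quasi-likelihood test, Benjamini-Hochberg adjustment over all genes tested). Contrasts were sh3 minus nt and sh4 minus sh3. The 16 passage libraries were fitted alike. Called genes had an adjusted p under 0.05 and a fold change over 2, and rose, fell, higher and lower within a list mean an adjusted p under 0.05. CPM were computed on TMM-scaled library sizes. Common BCV was 0.0456. Coordinates and promoter windows came from RefSeq (GRCm38.p6, the assembly of mm10), and 24463 symbols matched directly and 435 by an older symbol.

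The gene lists, the tests and the libraries were chosen with earlier results of these data known. Genes named were all TEAD factors and cofactors, up to 4 members per other list with an adjusted p under 0.05, the largest change and a mean level of 1 or more in log2 CPM, and the 10 highest and 10 lowest called genes that averaged 3 or more on that scale without overlap. The same rule, applied to sh4 against sh3, named no gene. Other genes, all list members, were named after their values were seen. Alternatives were DESeq2 1.42.0, its size factors, upper quartile scaling, other count filters, a test against a fold of 1.5 (glmTreat), the replicate block, fewer groups and leaving out each library. The fits were tested on simulated data. Counting limits cover counting error only. Of the genes named by the rule, 1 is not reported here.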

Additional observations from a re-analysis of the deposited data

Results flagged for a closer look

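Between the hairpins, the direct comparison of sh4 with sh3 gave 3 genes called higher and 28 called lower by edgeR, 13 of the latter from the interferon list. That list does not hold every gene that interferon induces, and the rest of the 28 were not sorted for such genes. The log2 difference of sh4 against sh3 was 0.18 for Tead1, -1.87 for Oasl2, -2.08 for Ifit1, -1.99 for Usp18, -1.18 for Isg15 and 1.11 for Lyz2. Among the 4 P7 libraries, 1 stood apart for Tead1, at 279.5 CPM against a highest value of 416.6 CPM, and its gap to the nearest library was 0.9203 of the range of the group. The limit for this flag is one that chance alone passes in about 1 of 20 groups, and every TEAD gene was screened at every passage.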

How the results depend on the processing

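For sh3 against nt, the count of genes called higher moved from 258 to 150 with at least 10 counts in every library and to 128 with glmTreat against a fold of 1.5. The count called lower moved from 94 to 52 with glmTreat, and the interferon-stimulated genes called higher from 22 to 13 of 22 tested with at least 10 counts. For sh4 against sh3, genes called higher numbered 3, and 1 with DESeq2, 5 without a filter, 1 with at least 10 counts and 0 with glmTreat in edgeR. Genes called lower numbered 28, and 15 with DESeq2, 16 with at least 10 counts and 3 with glmTreat, and interferon-stimulated genes called lower 13, and 8, 8 and 2. These settings test fewer genes or against a larger fold, except DESeq2 and the fit without a filter, for which the cause was not tested. With 1 library left out at a time, sh3 against nt gave 235 to 260 genes higher, 84 to 114 lower, 19 to 23 interferon-stimulated genes and a log2 fold change of Tead1 from -1.001 to -0.914. Sh4 against sh3 gave 1 (without sh3 replicate 2) to 6 (without sh3 replicate 1) higher, 18 (without sh3 replicate 3) to 34 lower and 8 (without sh3 replicate 3) to 16 interferon-stimulated genes lower. Same-numbered libraries correlated in their deviations from the group means by -0.0446 to 0.112. With 3 libraries per group, these low values cannot show whether same-numbered libraries shared a culture or preparation. With the replicate block, 253 genes were called higher and 94 lower, 22 of the interferon list higher, and Tead1 changed by -0.96, and sh4 against sh3 gave 4 higher, 27 lower and 11 of the interferon list. No called gene of those named changed direction. With upper quartile scaling, the median log2 fold change turned from -0.01 to 0.03 for Hippo regulators and for oxidative phosphorylation, from -0.03 to 0.01 for cell cycle inhibitors and from -0.02 to 0.02 for mitochondrial ribosome genes, and some medians within 0.03 of 0 also changed sign when a library was left out. The fits of Tead1 at P7 against P3 without each library were added after the data were seen. Of 1666 values of named genes under the alternatives, 1559 kept their side of the threshold. Low counts limit the precision for the scarce interferon-stimulated genes.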
